A study of Mus musculus with 7 samples.

Results

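The lysosomal hydrolases and the vacuolar proton pump were examined as a list of 36 genes in microglia of amyloid-bearing mice with and without B2m. The list holds 15 Atp6 genes for subunits and accessory proteins of the pump, and 21 genes for hydrolases, their cofactors, lysosomal membrane proteins and the transcription factors Tfeb and Tfe3. Members were found by gene symbol in the probe annotation of the array, and 35 of the 36 had a row among 19505 named genes, each with 1 probe set. Atp6v0c, the proteolipid of the pump's membrane ring, was not analysed here. Both groups were 5xFAD mice on the C57BL/6 strain, a line whose amyloid transgenes are driven in neurons. The knockout group (B2m-/-) held 4 arrays and the wildtype group (B2m+/+) held 3. Cells were sorted from brain suspensions as live (unstained by a viability dye), CD45+ and CD11b+, a gate that other myeloid cells can also pass, and 1 array was hybridized per sample. The labels gave no age, sex or batch, and did not say whether animals were pooled. Whether each array stands for its own animal is not labelled, so the p-values rest on a spread between samples that may be technical.

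Lysosomes digest material taken up from outside the cell and worn parts of the cell itself. Their proteases, glycosidases and lipases work best in acid, and the lumen is acidified by the vacuolar ATPase, in which a cytosolic V1 sector splits ATP and a membrane V0 sector moves protons. In microglia this system receives phagocytosed amyloid, debris and synaptic material, and the transcription factors TFEB and TFE3 are known to act on many of its genes.

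Values were log2 expression after RMA, the authors' background correction, normalization and probe summary, so a difference of 1 is a doubling. Differences are knockout minus wildtype. Testing was limited to genes with a value over the median named gene of the same array on 3 or more arrays, which left 10004 genes and 33 of the 36 members. B2m itself, the light chain of MHC class I, was at 10.24 to 10.56 in knockout and 13.39 to 13.42 in wildtype arrays, and fell by 2.99 (SE 0.10, limma adjusted p = 1.54e-07). Microglial markers were present at similar summed levels in both groups, 59200 to 63500 in knockout and 58800 to 63700 in wildtype arrays on the linear scale over 11 genes. All 8 T and NK cell markers, all 6 astrocyte and all 6 neuron markers were dimmer in all 7 arrays than the negative control bound, the 95th percentile of the array's negative control rows (9.35 to 9.55). The median named gene of the arrays was at 7.925 to 7.988, so a value under that bound does not show that a transcript is absent. Endothelial markers summed to 10600 to 12000 in knockout arrays, and to 16200, 16700 and 9730 in wildtype replicates 1, 2 and 3, with 5 of 11 below that bound in all arrays. Mural markers summed to 2130 to 2310 in knockout arrays, and to 3030, 3650 and 1870 in wildtype replicates 1, 2 and 3, with 4 of 6 below that bound. All 10 tested endothelial and all 4 tested mural markers had a difference below 0. Neutrophil markers summed to 12000, 18100, 25200 and 34500 in knockout replicates 1, 2, 3 and 4, and to 12100 to 19300 in wildtype arrays. Of these markers 0 of 7 lay below that bound in all arrays. Monocyte markers summed to 7370, 8020, 7320 and 10400 in knockout replicates 1, 2, 3 and 4, and to 6700 to 7460 in wildtype arrays. Ccr2 and Spn lay below that bound in all arrays. The part of these cells in the results below was not tested, and fewer cells of a type and less RNA per cell cannot be told apart in bulk samples.

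The tested hydrolase members were at nearly the same level in both genotypes. Several pump members had higher values in knockout microglia that did not pass correction. Over 10004 genes limma called 5 (0.05%) at an adjusted p under 0.05, and 0 of the 33 tested members, whose adjusted p ran from 0.265 to 0.998. At an unadjusted p under 0.05, 6 members were higher in knockout microglia and 0 lower, beside 8.39% of all tested genes higher and 3.54% lower (11.9% in either direction). The difference was above 0 in 23 of the 33 members and in 48.6% of all tested genes. Of the 6, 5 were among the 13 tested pump members and 1 was among the 20 other tested members. The median difference was 0.14 over the 13 tested pump members and 0.017 over the 10 tested hydrolases, beside -0.0055 over all tested genes. With the members below the filter included, the medians were 0.18 over 14 pump members and 0.0016 over 11 hydrolases. Outside the list the order of the medians was the reverse. The median was -0.11 over 15 other tested pump subunits and assembly factors (5 above 0 and 10 below) and 0.066 over 30 other tested hydrolases. Among the former, Atp6v1g2, Tmem199 and Oxr1 lay under the negative control bound in all arrays. Tcirg1, a pump subunit above it, differed by 0.30 with overlapping groups. The groups did not overlap, with knockout arrays higher, in 3 tested pump members and 0 tested hydrolases, beside 7.1% of all tested genes.

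**Figure D1:**
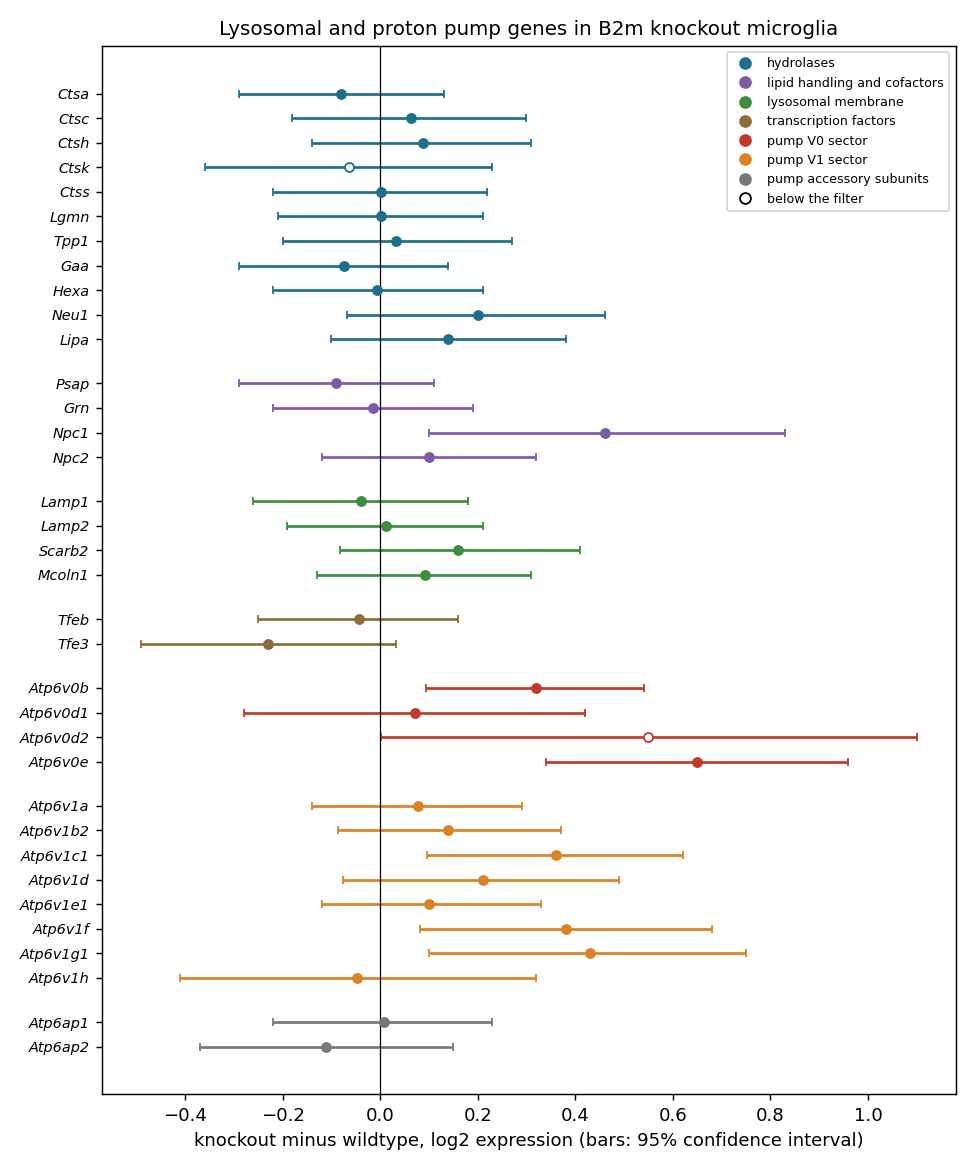
Difference between knockout and wildtype microglia (horizontal axis, log2) for the 35 measured members, in order of role. Points are fitted differences, bars are 95% confidence intervals, and open points mark Ctsk and Atp6v0d2, which lay below the filter. The highest tested point is Atp6v0e at 0.65, and the hydrolase points lie between -0.08 and 0.20.

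Among the hydrolases, Lgmn (Entrez Gene 19141), the asparaginyl endopeptidase legumain, was at 13.89, 13.83, 13.81 and 13.93 in knockout arrays and 13.94, 13.78 and 13.87 in wildtype arrays. Both groups covered the same range, and the difference was 0.0016 (SE 0.094). Ctss (Entrez Gene 13040), cathepsin S, a cysteine protease of antigen-presenting cells that trims the invariant chain, was at 12.84, 12.68, 12.66 and 12.70 in knockout arrays and 12.78, 12.62 and 12.76 in wildtype arrays. Its groups overlapped, with the highest value in knockout replicate 1 and the lowest in wildtype replicate 2, and a difference of 0.00078 (SE 0.098). Hexa, the alpha subunit of beta-hexosaminidase, which degrades GM2 ganglioside, differed by -0.0067 (SE 0.098). Of the 10 tested hydrolases, 8 differed by less than 0.1 in either direction. Among these were the serine carboxypeptidase Ctsa at -0.08, the dipeptidyl peptidase Ctsc at 0.064, the aminopeptidase Ctsh at 0.088, the tripeptidyl peptidase Tpp1 at 0.033 and the acid alpha-glucosidase Gaa at -0.075.

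The remaining tested hydrolases had larger differences and overlapping groups. Neu1 (Entrez Gene 18010), the lysosomal sialidase, was at 9.73, 9.96, 9.84 and 9.75 in knockout arrays and 9.48, 9.53 and 9.86 in wildtype arrays. Wildtype replicate 3 lay among the knockout values, and the difference was 0.20 (SE 0.12, limma unadjusted p = 0.129). It was 0.32 (unadjusted p = 0.0243) without wildtype replicate 3, 0.12 without wildtype replicate 1, and -0.039 without wildtype replicates 1 and 2, which left 1 wildtype array. Lipa, the acid lipase that frees cholesterol and fatty acids from lipoproteins, differed by 0.14 (SE 0.11), with 2 of 4 knockout arrays above all wildtype arrays. Without wildtype replicate 3 it was 0.063. The 95% confidence intervals of the 10 tested hydrolases lay between -0.29 and 0.46, or 0.816-fold and 1.38-fold, so larger changes of a tested hydrolase lay outside them. Adjusted p ran from 0.539 to 0.998 over these genes in limma. Ctsk, cathepsin K, the collagenase of osteoclasts, lay below the filter at 6.06 to 6.41 in knockout and 6.09 to 6.53 in wildtype arrays, between the 44.4th and 57.3rd percentiles of the negative control rows.

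Of the 4 cofactor and lipid-handling members, Npc1 (Entrez Gene 18145), the membrane protein that passes cholesterol out of the lysosome, had the largest difference. It was at 8.37, 8.53, 8.74 and 8.87 in knockout arrays and 8.44, 7.83 and 8.23 in wildtype arrays. The values of 3 knockout arrays lay above all wildtype values, and knockout replicate 1 lay below wildtype replicate 1. The difference of 0.46 (SE 0.16, unadjusted p = 0.0171) did not pass in limma (adjusted p = 0.348). All 7 values were under the negative control bound, so no fold is given. Without wildtype replicate 2, the lowest array, the difference was 0.30 (unadjusted p = 0.0938). Npc2, the soluble partner that hands cholesterol to Npc1, differed by 0.10 (SE 0.10).

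Psap (Entrez Gene 19156), the precursor of the saposins that present sphingolipids to their hydrolases, was at 13.33, 13.32, 13.31 and 13.37 in knockout arrays and 13.48, 13.38 and 13.41 in wildtype arrays. Its groups did not overlap, with all knockout arrays lower, as in 3.8% of all tested genes. The gap between the closest arrays was 0.00947, and the difference of -0.09 (SE 0.09, unadjusted p = 0.337) did not pass in limma. Grn (Entrez Gene 14824), progranulin, a secreted and lysosomal glycoprotein whose loss causes lysosomal storage, differed by -0.014 (SE 0.092), with 13.75 to 13.87 in knockout and 13.75 to 13.87 in wildtype arrays.

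The 4 lysosomal membrane members had overlapping groups. Lamp1 and Lamp2, the abundant glycoproteins of the lysosomal membrane, differed by -0.039 (SE 0.098) and 0.012 (SE 0.089). Lamp2 was at 13.21, 13.11, 13.18 and 13.13 in knockout arrays and 13.16, 13.14 and 13.14 in wildtype arrays, with knockout values on both sides of the wildtype values. Scarb2, which carries glucocerebrosidase to the lysosome, differed by 0.16 (SE 0.11). Mcoln1, the calcium and cation channel TRPML1, differed by 0.092 (SE 0.098). In both of these genes 3 of 4 knockout arrays lay above all wildtype arrays, while Scarb2 in knockout replicate 2 lay below all wildtype arrays, and their limma adjusted p was 0.586 and 0.747.

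Neither transcription factor member reached an unadjusted p under 0.05. Tfe3 (Entrez Gene 209446) was at 10.85, 10.76, 10.89 and 11.08 in knockout arrays and 11.31, 10.97 and 11.09 in wildtype arrays. The values of 3 knockout arrays lay below all wildtype values and knockout replicate 4 lay among them. The difference of -0.23 (SE 0.12, unadjusted p = 0.0798, limma adjusted p = 0.478) was -0.14 without wildtype replicate 1 and -0.31 (unadjusted p = 0.044) without wildtype replicate 2. Tfeb was at 9.81 to 9.90 in knockout and 9.86 to 9.96 in wildtype arrays, a difference of -0.044 (SE 0.091). These values are transcript levels, and both factors are known to be controlled mainly by phosphorylation and movement to the nucleus, which arrays do not read.

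TFEB and TFE3 bind an E-box with flanking bases, known as the CLEAR element. Promoter sequences from RefSeq (GRCm38.p6), 250 bases before to 50 after each start site, were given for 29 of the 36 members. The motif TCACGTG, a core of that element read on either strand (CACGTGA on the reverse), was present in 9 of these 29 genes, 4 of 10 pump members and 3 of 10 hydrolases. By window it was present in 9 of 37 (24.3%), against 3.77% of all 32851 promoter windows of the table and 4.57% of those of genes on the array. A match is a description of letters and not a bound site. Genes of this kind are known targets of these factors, so the shares are no new evidence and were not tested. The sequences below show 2 pump genes with higher values, 1 with the motif and 1 without, and a hydrolase and a membrane protein with the motif and level values. They are the 250 bases before the start site, 5′ to 3′ on the gene's strand, with the motif in capitals. Atp6v0b lies at chr4:117887330-117887579 on the minus strand, Atp6v1f at chr6:29467533-29467782 on the plus strand, Gaa at chr11:119267713-119267962 on the plus strand and Lamp1 at chr8:13158911-13159160 on the plus strand.
Atp6v0b: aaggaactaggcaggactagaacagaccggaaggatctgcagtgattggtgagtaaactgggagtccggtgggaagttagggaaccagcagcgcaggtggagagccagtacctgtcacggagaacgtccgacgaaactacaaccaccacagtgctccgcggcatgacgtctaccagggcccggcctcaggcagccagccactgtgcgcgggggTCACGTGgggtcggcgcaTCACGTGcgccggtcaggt
Atp6v1f: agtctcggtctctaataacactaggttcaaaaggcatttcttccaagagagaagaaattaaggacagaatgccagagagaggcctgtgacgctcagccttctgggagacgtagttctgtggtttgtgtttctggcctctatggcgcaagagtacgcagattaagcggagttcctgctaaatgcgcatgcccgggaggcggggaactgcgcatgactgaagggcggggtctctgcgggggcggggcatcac
Gaa: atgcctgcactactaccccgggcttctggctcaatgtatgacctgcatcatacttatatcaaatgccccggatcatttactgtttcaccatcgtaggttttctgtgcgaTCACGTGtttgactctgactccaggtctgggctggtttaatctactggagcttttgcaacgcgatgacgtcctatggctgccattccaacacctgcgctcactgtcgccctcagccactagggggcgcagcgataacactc
Lamp1: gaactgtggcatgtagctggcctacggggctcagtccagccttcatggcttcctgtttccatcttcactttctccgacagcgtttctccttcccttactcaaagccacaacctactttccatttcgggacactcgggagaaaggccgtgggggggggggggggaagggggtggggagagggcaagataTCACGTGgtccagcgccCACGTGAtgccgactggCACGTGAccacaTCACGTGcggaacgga

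Lamp1 carried 4 copies of the motif and Atp6v0b 2, the nearest beginning at -16 and -19 relative to the start site. Gaa carried 1 copy, beginning at -141. In Atp6v0e, the pump gene with the largest difference, the motif reads on both strands in 1 palindrome just after the start site, in the 29 bases at chr17:26676387-26676415 on the plus strand.
Atp6v0e: tagcgcgccgaTCACGTGAgcctctgttg
Among pump members, the 4 genes with the motif had differences from 0.071 to 0.65 with a median of 0.20, and the 5 measured without it had -0.11 to 0.38 with a median of 0.10. Among the other members, the 5 with the motif had -0.08 to 0.09 with a median of -0.039, and the 14 without it had -0.23 to 0.20 with a median of 0.0062. The ranges with and without the motif overlapped in both sets. Atp6v1c1, Atp6v1g1 and Npc1, tested members at an unadjusted p under 0.05, had no promoter sequence and were in neither set. The same held for Atp6v1b2, Atp6v1h, Atp6v0d2 and Ctsh.

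In the V0 sector, Atp6v0e (Entrez Gene 11974), a small membrane subunit, was at 10.50, 10.37, 10.45 and 10.34 in knockout arrays and 9.45, 9.79 and 10.07 in wildtype arrays. All knockout arrays lay close together and above all wildtype arrays, whose values were spread over a wider range. Means were 10.42 ± 0.070 (SD, n = 4) in knockout and 9.77 ± 0.31 (SD, n = 3) in wildtype arrays. The difference was 0.65 (SE 0.14), 1.57-fold with a 95% confidence interval of 1.26 to 1.94. It was the smallest p among the members (unadjusted p = 0.000859) and did not pass in limma (adjusted p = 0.265, and 0.0576 to 0.999 over 18 alternatives). The difference was 0.49 without wildtype replicate 1 and 0.34 without wildtype replicates 1 and 2.

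Atp6v0b (Entrez Gene 114143), a proteolipid of the rotating membrane ring, was at 10.92, 10.86, 10.79 and 10.71 in knockout arrays and 10.38, 10.56 and 10.56 in wildtype arrays. All knockout arrays lay above all wildtype arrays. Its difference of 0.32 (SE 0.10, unadjusted p = 0.00974) did not pass in limma (adjusted p = 0.334), and was 0.26 (unadjusted p = 0.121) without wildtype replicates 1 and 2. Atp6v0d1, the widely expressed subunit that joins the ring to the central stalk, was at 9.70, 9.88, 9.93 and 9.80 in knockout arrays and 9.94, 9.34 and 9.99 in wildtype arrays. Wildtype replicate 2 alone lay apart, under the negative control bound, and the difference of 0.071 (SE 0.16) was -0.14 without that array. Atp6v0d2, its isoform known from osteoclasts and macrophages, lay below the filter at 6.72, 7.78, 7.10 and 7.62 in knockout arrays and 6.75, 6.37 and 7.13 in wildtype arrays. Its values lay between the 52.5th and 78.2nd percentiles of the negative control rows, and in the fit without a filter it differed by 0.55 (SE 0.25, unadjusted p = 0.0494, adjusted p = 0.548).

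In the V1 sector, Atp6v1c1 (Entrez Gene 66335), which links the stator to the catalytic head and leaves when the pump is taken apart, was at 10.44, 10.14, 10.00 and 10.20 in knockout arrays and 9.87, 9.88 and 9.76 in wildtype arrays. The groups did not overlap, and knockout replicate 1 was the highest. The difference was 0.36 (SE 0.12, unadjusted p = 0.0122, limma adjusted p = 0.343), 1.28-fold with a 95% confidence interval of 1.07 to 1.54. It was 0.44 without wildtype replicates 1 and 2.

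Atp6v1g1 (Entrez Gene 66290), a peripheral stalk subunit, was at 10.87, 10.87, 10.90 and 10.63 in knockout arrays and 10.08, 10.38 and 10.71 in wildtype arrays. Atp6v1f (Entrez Gene 66144), a small subunit of the central stalk, was at 12.73, 12.65, 12.63 and 12.45 in knockout arrays and 11.96, 12.22 and 12.51 in wildtype arrays. In both genes wildtype replicate 1 was the lowest array, and wildtype replicate 3 lay above knockout replicate 4. Atp6v1g1 differed by 0.43 (SE 0.15, unadjusted p = 0.015) and Atp6v1f by 0.38 (SE 0.14, unadjusted p = 0.0175), and both had a limma adjusted p of 0.348. Without wildtype replicate 1 the differences were 0.27 (unadjusted p = 0.0767) and 0.25 (unadjusted p = 0.0884). Without wildtype replicates 1 and 2 they were 0.11 and 0.10.

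**Figure D2:**
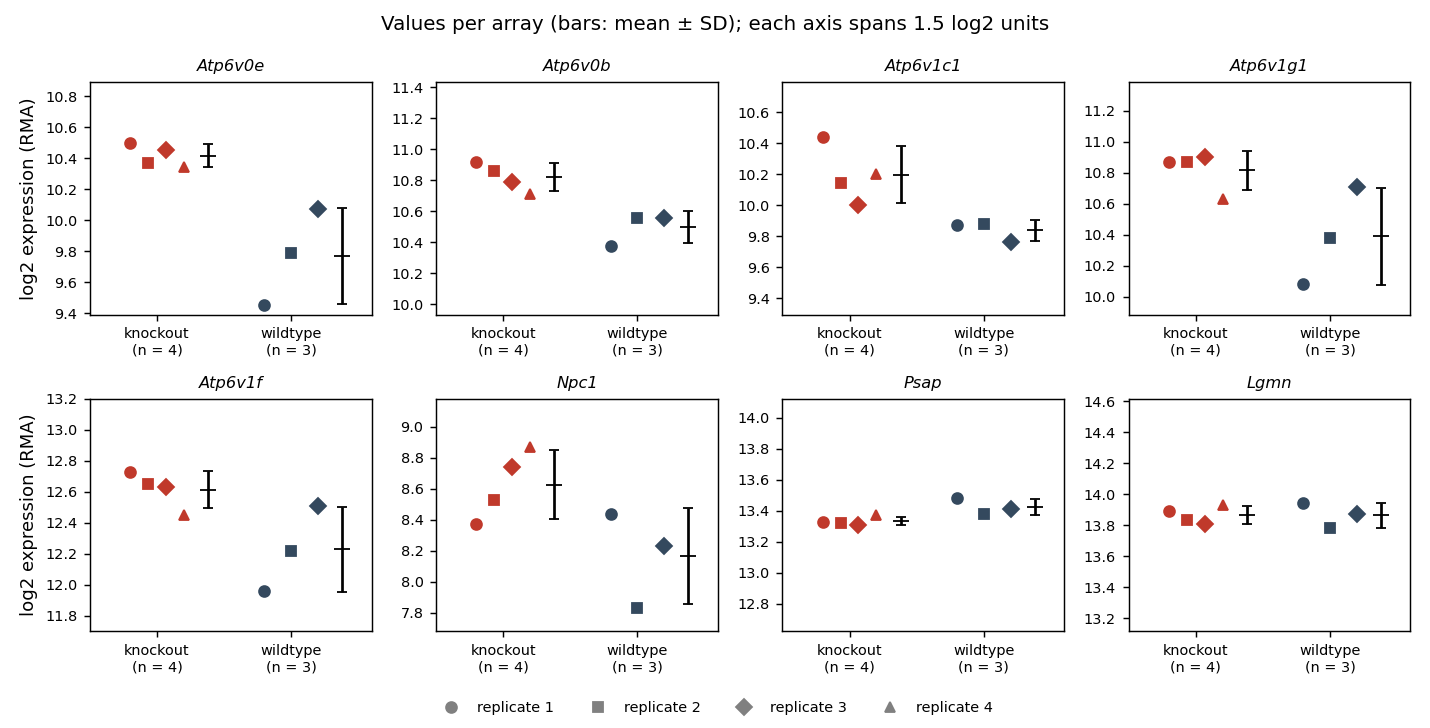
Log2 expression in every array for the 5 pump genes and Npc1 at an unadjusted p under 0.05, for Psap, whose groups do not overlap, and for Lgmn, a hydrolase. Knockout arrays are in red on the left and wildtype arrays in dark blue on the right, symbols mark replicates, bars are mean ± SD, and each axis spans 1.5 log2 units. Knockout and wildtype values of Atp6v0e, Atp6v0b and Atp6v1c1 are apart, and those of Lgmn lie over each other.

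Of the 8 tested V1 members 7 had a difference above 0, with a median of 0.18. The other 8 tested pump members did not reach an unadjusted p under 0.05. The catalytic and nucleotide-binding subunits of the head, Atp6v1a and Atp6v1b2, differed by 0.077 (SE 0.096) and 0.14 (SE 0.10). Atp6v1d, the central shaft, was at 10.23, 9.78, 10.00 and 10.13 in knockout arrays and 9.95, 9.67 and 9.86 in wildtype arrays, a difference of 0.21 (SE 0.13). In Atp6v1d 3 of 4 knockout arrays lay above all wildtype arrays, and the difference was 0.29 (unadjusted p = 0.0351) without knockout replicate 2 and 0.13 without wildtype replicate 2. The stalk subunit Atp6v1e1 differed by 0.10 (SE 0.10), and Atp6v1h, a regulatory subunit under the negative control bound in all arrays, by -0.048 (SE 0.16). The accessory subunits Atp6ap1 and Atp6ap2, the second also known as the prorenin receptor, differed by 0.0073 (SE 0.10) and -0.11 (SE 0.12).

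Array by array, the tested pump members had a median deviation from their gene means of 0.20, 0.018, 0.11 and 0.077 in knockout arrays and -0.10, -0.16 and -0.0013 in wildtype arrays. The hydrolases had 0.049, -0.027, 0.025 and 0.0085 in knockout arrays and 0.057, -0.10 and 0.024 in wildtype arrays. The pump median minus the hydrolase median was 0.15, 0.045, 0.084 and 0.068 in knockout arrays and -0.16, -0.057 and -0.025 in wildtype arrays. It was above 0 in all knockout and below 0 in all wildtype arrays, with wildtype replicate 3 and knockout replicate 2 closest. The members were chosen with results of these arrays known, so no test is given for it. The median difference of the pump minus that of the hydrolases was 0.13, and 0.097 to 0.17 with 1 array left out.

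**Figure D3:**
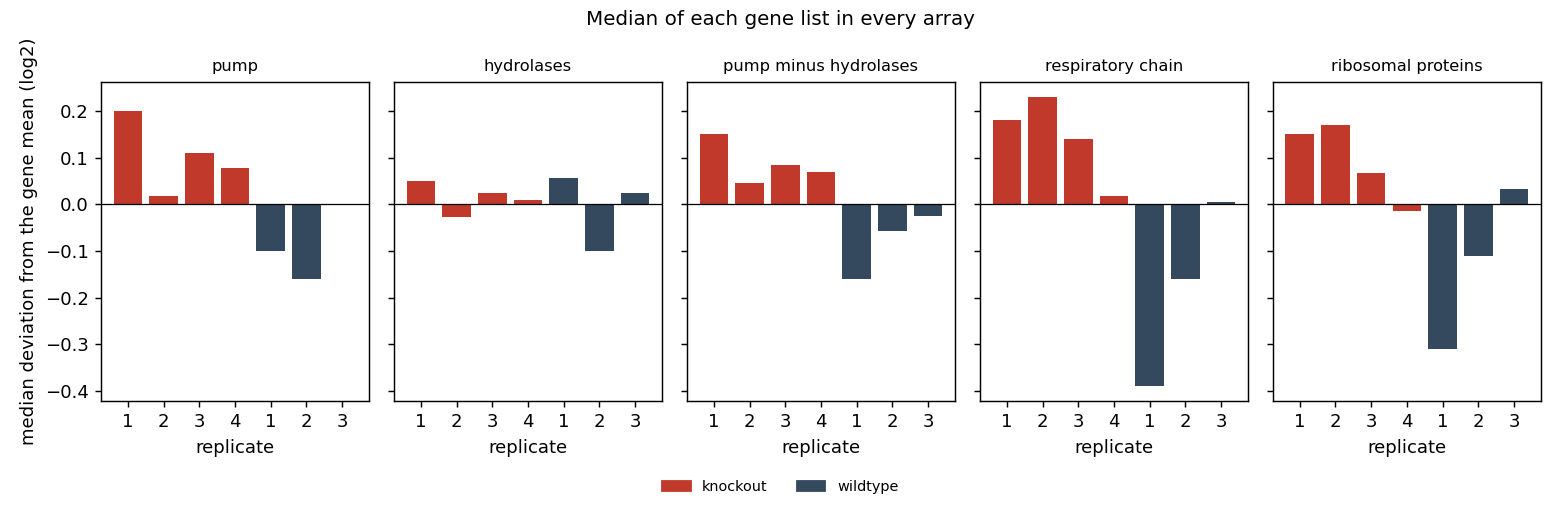
Median deviation of each gene list from its gene means (vertical axis, log2) in the 4 knockout arrays (red) and the 3 wildtype arrays (dark blue), by replicate number. The hydrolase bars lie between -0.10 and 0.057 with no order by genotype, and the lowest bars of the respiratory chain and ribosomal protein lists are those of wildtype replicate 1 at -0.39 and -0.31.

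Genes of the respiratory chain and ATP synthase and of the cytosolic ribosome were set beside the pump. Of 74 tested respiratory chain genes 46 (62.2%, against 8.39% of all tested genes) had an unadjusted p under 0.05 with higher knockout values, 0 passed in limma, and the median was 0.33, among them the complex I subunits Ndufb9 at 0.62 (SE 0.11) and Ndufv2 at 0.69 (SE 0.13), and the ATP synthase subunits Atp5j at 0.56 (SE 0.12) and Atp5pb at 0.48 (SE 0.11). Of 53 ribosomal protein genes 15 (28.3%) were higher at that level and 0 passed, with a median of 0.22, among them Rpl17 at 0.42 (SE 0.12), Rpl35a at 0.37 (SE 0.11), Rpl27 at 0.39 (SE 0.12) and Rps15a at 0.36 (SE 0.12). The array medians of the respiratory chain list were 0.18, 0.23, 0.14 and 0.017 in knockout arrays and -0.39, -0.16 and 0.0041 in wildtype arrays. Those of the ribosomal list were 0.15, 0.17, 0.066 and -0.015 in knockout arrays and -0.31, -0.11 and 0.032 in wildtype arrays. Wildtype replicate 1 was the lowest array of both lists, as it was for Atp6v0e, Atp6v0b, Atp6v1f and Atp6v1g1, and knockout replicate 4 the lowest knockout array of both lists and of these 4 genes. Atp6v1c1 did not have this order.

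Differences over all genes moved with the length of the gene on the chromosome. Among the 1001 tested genes with the shortest span, up to 3.75 kb, the median difference was 0.061, and among the 1001 with the longest, at 109 kb or more, it was -0.078. The share higher at an unadjusted p under 0.05 was 16.1% in the shortest group and 2.2% in the longest, beside 8.39% of all tested genes. It was 12.9% at 3.75 to 6.96 kb and 13.5% at 6.96 to 10.8 kb. The tested respiratory chain and ribosomal protein genes had median spans of 7.11 and 3.35 kb. Each array's deviations correlated with span across genes, with Spearman's rho of -0.243, -0.254, -0.197 and 0.222 in knockout arrays and 0.361, 0.136 and -0.149 in wildtype arrays, where genes are not independent replicates. Atp6v1f, Atp6v0b and Atp6v1g1 span 2.73, 3.0 and 5.94 kb, while Atp6v0e and Atp6v1c1 span 23.3 and 30.5 kb. The hydrolases span 6.04 to 45.6 kb with a median of 23.7 kb, and the pump members 2.73 to 80.2 kb with a median of 25 kb. Over the 13 tested pump members the difference and the span had a Spearman's rho of -0.582, and over the 10 tested hydrolases 0.0182. With the span trend of each array removed, Atp6v0e differed by 0.63, Atp6v1c1 by 0.35, Atp6v1g1 by 0.37, Atp6v1f by 0.32 and Atp6v0b by 0.25. The pump median was then 0.13 and the hydrolase median 0.0065. The cause of the span trend and its part in the pump differences were not tested.

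**Figure D4:**
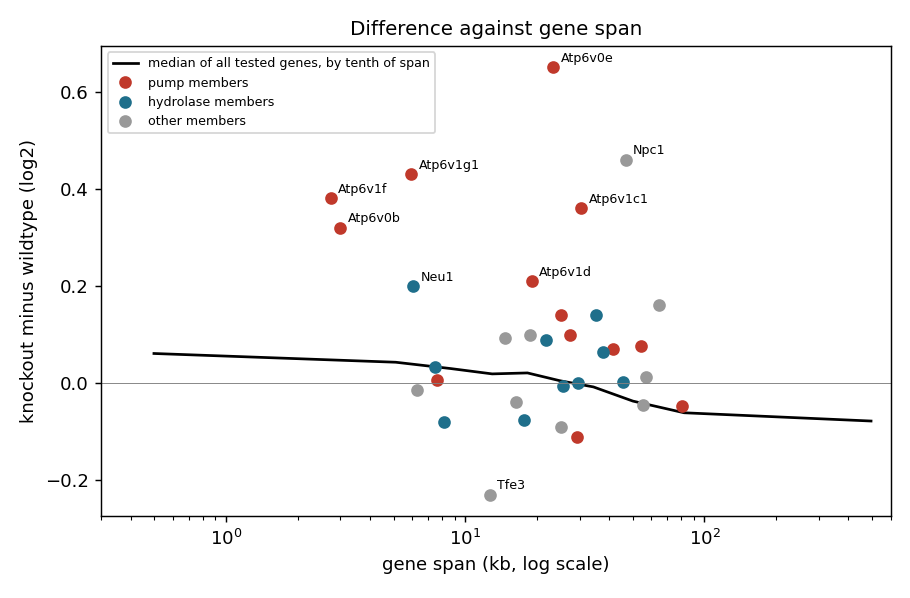
Difference between knockout and wildtype microglia (vertical axis, log2) against gene span (horizontal axis, kb, log scale) for the 33 tested members. The black line joins the medians of all tested genes in bins of about 1000 genes by span, from 0.061 to -0.078. The labelled pump genes lie above it at short and middle spans, and the hydrolases lie around it.

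Other genes of the pathway were taken from 7 lists drawn up by function, and limma called 0 of them. Their counts at an unadjusted p under 0.05 stand beside 8.39% of all tested genes higher and 3.54% lower. Of 30 other tested lysosomal hydrolases, 21 had a difference above 0 and 9 below, with a median of 0.066. At an unadjusted p under 0.05, 2 were higher and 0 lower. These were Ggh, gamma-glutamyl hydrolase, at 0.35 (SE 0.13), and the glycoprotein-degrading enzyme Aga at 0.24 (SE 0.099). The palmitoyl thioesterase family member Ppt2 and the fucosidase Fuca1 differed by 0.23 (SE 0.10) and 0.18 (SE 0.095) without reaching that level. In this list 6 of 30 genes had knockout arrays above all wildtype arrays and 1 had them below, beside 7.1% and 3.8% of all tested genes.

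The 15 tested subunits and assembly factors of the pump outside the list had a median of -0.11, with 5 above 0 and 10 below. At an unadjusted p under 0.05, 1 was higher and 1 lower. Atp6v1g2, a peripheral stalk isoform known from neurons, averaged 8.44 in knockout and 9.02 in wildtype arrays, without overlap. Its difference was -0.58 (SE 0.14, unadjusted p = 0.00154, limma adjusted p = 0.314), and it was under the negative control bound in all arrays. Tmem199, an assembly factor, differed by 0.28 (SE 0.10), also under that bound in all arrays. Tcirg1, the a3 subunit of the V0 sector found in lysosomes of macrophages and osteoclasts, averaged 10.76 in knockout and 10.46 in wildtype arrays with overlap, a difference of 0.30 (SE 0.14, unadjusted p = 0.053). Oxr1, which shares a domain with factors that bind the pump, differed by -0.20 (SE 0.11), under the negative control bound in all arrays.

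Of 25 other lysosomal membrane proteins and transporters, 2 were higher and 1 lower at the unadjusted level, with a median of 0.0099. The cationic amino acid exporter Slc66a1 and the lipid transporter Abca2 differed by 0.34 (SE 0.11) and 0.33 (SE 0.13), and the arginine sensor Slc38a9 by -0.37 (SE 0.16). Tmem192 differed by 0.27 (SE 0.12) without reaching that level. Slc66a1 and Abca2 were under the negative control bound in all arrays. Of 13 genes for enzyme delivery and maturation 1 was higher and 0 lower. This was Vps29, a retromer subunit, at 0.43 (SE 0.13), while Gnptab, which starts the mannose 6-phosphate tag, was at 0.22 (SE 0.14), Vps35 at 0.11 (SE 0.093) and Vps26a at 0.14 (SE 0.12). Of 14 genes of the related factors, mTORC1 and the Ragulator, 2 were higher and 0 lower. Both were of the Ragulator, Lamtor5 at 0.35 (SE 0.13) and Lamtor2 at 0.32 (SE 0.13). Lamtor5 spans 5.22 kb, in the group of 3.75 to 6.96 kb with 12.9% of genes higher at that level. Lamtor2 spans 3.13 kb, in the shortest group with 16.1% higher. Lamtor1 and Mtor differed by 0.29 (SE 0.14) and 0.31 (SE 0.15) without reaching that level, both under that bound in all arrays. Of 21 autophagy genes 4 were higher, a larger share than the 8.39% of all tested genes, and 0 lower. The 4 were the conjugating enzyme Atg3 at 0.43 (SE 0.12), Gabarapl2 at 0.35 (SE 0.13), Map1lc3a at 0.36 (SE 0.14) and Atg7 at 0.48 (SE 0.20), with Map1lc3a under that bound in all arrays. The groups overlapped in all of these but Atg3. Map1lc3a spans 1.71 kb, in the shortest group with 16.1% higher, and Atg3, Gabarapl2 and Atg7 span 29.7, 12.2 and 217 kb. Of 3 tested protease inhibitors 0 reached that level, with Cst7, a cystatin of activated microglia, at 0.19 (SE 0.12), Cstb at 0.12 (SE 0.12) and Cst3, cystatin C, at -0.0042 (SE 0.089).

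**Figure D5:**
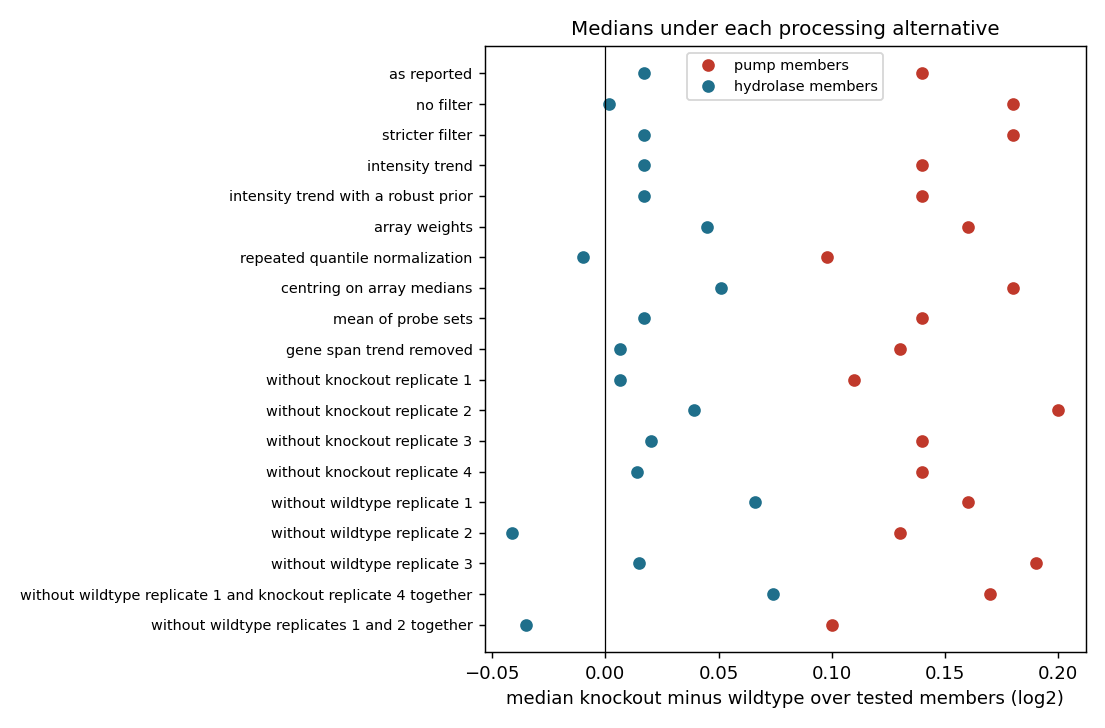
Median difference between knockout and wildtype microglia (horizontal axis, log2) over the tested pump members (red) and tested hydrolase members (blue) under each of 18 processing alternatives and as reported at the top. Pump medians lie between 0.098 and 0.20 and hydrolase medians between -0.041 and 0.074.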

How the data were processed

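Gene expression was measured on 7 arrays of sorted microglia, 4 B2m knockout and 3 B2m wildtype, grouped by the genotype label. The authors deposited 1 log2 value for each probe set and array. The submitters' processing notes name RMA and Expression Console 1.1 of Affymetrix. The array's genome build was not given in these sources. Values ran between 3.57 and 14.34 over 28846 rows, array medians were 7.68 to 7.75, and the values were used as deposited. A probe annotation named 1 gene for 19572 rows, several for 0 and none for 9274. For 55 genes with several probe sets the one with the highest mean was kept. All 19505 genes matched a gene table of GRCm38.p6 by Entrez identifier, which gave chromosomes and gene spans. Rows tagged neg (5222) served as a rough guide to background.

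Genes above the array median over named genes in at least 3 arrays were compared by lmFit and eBayes of limma 3.58.1 under R 4.3.3, with Benjamini-Hochberg adjustment over 10004 genes. The fit was tested on simulated data with independent noise, no gene span trend and changes larger than those of the members. That test does not cover differences of the members' size. Lists are described by counts and medians, with no test. Members with an unadjusted p under 0.05 or groups that do not overlap are given in every array, up to 4 genes are named per other list, and further members were named for their role. The members and lists were chosen with earlier results of these data known. The 18 alternatives were filters, variance priors, array weights, normalization, probe set means, gene span and arrays left out. Replicates were numbered in accession order, which pairs nothing. The number of arrays limits the precision.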

Additional observations from a re-analysis of the deposited data

Results flagged for a closer look

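Outlying arrays were sought in the 4 knockout arrays only, for 38 values (35 members and 3 list medians), by the gap of the extreme array to its neighbour over the range of the group, with a critical value of 0.829. Chance alone marks about 1 group in 20, and 3 of the 38 were marked. Tpp1 was lower in knockout replicate 2 (11.69) than in replicates 1, 3 and 4 (11.86, 11.87 and 11.87), and wildtype replicate 2 was at 11.67. Atp6v1a was higher in knockout replicate 4 (9.64) than in the others (9.47 to 9.49). Atp6v1g1 was lower in knockout replicate 4 (10.63) than in the others (10.87 to 10.90), and without this array its difference was 0.49 in place of 0.43.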

How the results depend on the processing

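Over the 18 alternatives, 0 members were called and the pump median, and the pump median minus the hydrolase median, stayed above 0. With 1 array left out, the pump median ran from 0.11 to 0.20, the hydrolase median from -0.041 to 0.066 and the pump minus the hydrolase median from 0.097 to 0.17. Members higher at an unadjusted p under 0.05 then numbered 4 to 7, members lower 0 to 1, and all tested genes higher 474 (without wildtype replicate 1) to 952 (without wildtype replicate 3). Without wildtype replicates 1 and 2 together, 2 members (Atp6v0e and Atp6v1c1) and 212 genes were higher at that level. With 1 wildtype array left, its spread is assumed to be that of the knockout arrays. The 1 member lower at that level was Tfe3, after repeated quantile normalization (-0.28), after removal of the gene span trend (-0.26), without knockout replicate 4 (-0.29) and without wildtype replicate 2 (-0.31). Sign changes made up 42 of 592 member values in 15 members, all of differences that did not pass. Without wildtype replicates 1 and 2 the differences were -0.062 for Ctsc, -0.04 for Ctsh, -0.037 for Ctss, -0.0054 for Lgmn, -0.039 for Neu1, 0.058 for Grn, -0.031 for Npc2 and -0.17 for Atp6v0d1. After repeated quantile normalization they were -0.046 for Ctss, -0.012 for Lgmn, -0.0082 for Tpp1, -0.017 for Lamp2 and -0.039 for Atp6ap1. With the span trend removed they were -0.0054 for Ctss, -0.016 for Tpp1 and -0.041 for Atp6ap1. Without wildtype replicate 1 and knockout replicate 4 they were 0.0073 for Gaa and 0.048 for Hexa. Array weights gave 0.015 for Hexa, and centring on array medians 0.027 for Hexa and 0.02 for Grn. With 1 array left out, differences ran from -0.045 to 0.13 for Ctsc, -0.048 to 0.031 for Ctss, -0.038 to 0.037 for Lgmn, -0.025 to 0.11 for Tpp1, -0.062 to 0.046 for Hexa, -0.05 to 0.0075 for Grn, -0.10 to 0.00032 for Lamp1, -0.0051 to 0.028 for Lamp2, -0.14 to 0.19 for Atp6v0d1, -0.15 to 0.086 for Atp6v1h and -0.036 to 0.047 for Atp6ap1. The cause of these changes was not tested. No paired analysis was possible because the labels carry no replicate numbers. Signal over background limits Npc1, Atp6v1h, Ctsk and Atp6v0d2, which were under the negative control bound in all arrays. Neu1 and Atp6v0d1 were above that bound in 6 of 7 arrays and Atp6v1a in 5 of 7.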
